A study of Homo sapiens with 19 samples.

Results

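EZH2-/- H1 cells were compared with EZH1-/- H1 cells, gene by gene, to find the transcripts that differ according to which catalytic paralog of polycomb repressive complex 2 (PRC2) is missing. The members are the 2 samples labelled EZH2 knockout and the 2 samples labelled EZH1 knockout, 4 of the 19 samples of the series, chosen by genotype label alone. H1 is an established human embryonic stem cell (hESC) line, and RNA-seq was measured as TPM, a length-scaled share of all transcripts, per gene. All samples used here are H1 cells under feeder-free culture: WT H1, EZH1-/- H1, EZH2-/- H1, and the PRC2-null lines EZH2-/-/EZH1-/- H1, EED-/- H1 and SUZ12-/- H1, with 2 samples each. In each knockout the functional domain of the targeted gene had been removed with CRISPR/Cas9 and a donor. The donor carries a drug resistance cassette, which the WT cells lack. The paper reports that the PRC2-null lines lost pluripotency gene expression and differentiated toward meso-endoderm, while both single knockouts remained undifferentiated. A PRC2-null level set beside a single knockout is therefore also one of a different cell state. According to the study's text, several homozygous clones were characterized for each targeted gene, but the labels do not tie the samples to clones or separate cultures, so p-values measure the spread between these samples, which may be technical.

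PRC2 trimethylates histone H3 at lysine 27, a mark of repressed developmental genes, through a SET domain that is supplied by either EZH2 or EZH1, each of which assembles with EED and SUZ12. EZH2 is the more active methyltransferase and is abundant in dividing cells such as hESCs, whereas EZH1 is the paralog that persists in resting and differentiated cells. In hESCs the mark lies over developmental regulators that stay silent until the cells leave pluripotency.

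Of 33382 genes in the files, 15465 reached a TPM of 1 in 2 or more of these 4 samples and were tested with limma on log2(TPM + 1). At an adjusted p of at most 0.01 and a difference of at least 3-fold, 5 genes (0.0323% of those tested) were higher and 19 (0.123%) were lower in EZH2-/- than in EZH1-/- H1 cells. The higher genes were ODC1, the rate-limiting enzyme of polyamine synthesis, NRGN, a neuronal calmodulin-binding protein, and the chaperone genes HSPA8, HSPA1A and HSPA1B. The lower genes were led by INHBE, DDIT3, MEF2B, DDIT4, RAB17 and CHAC1, and 6 of the 19 belonged to the list of amino acid and unfolded protein stress genes. At an adjusted p of at most 0.05 with no fold cutoff, 24 genes (0.155%) were higher and 83 (0.537%) were lower. At an unadjusted p under 0.05 the counts were 657 (4.25%) and 1597 (10.3%). The median log2 difference over all genes tested was -0.10, so that single differences are relative to a small overall shift, and scaling by median ratios moved that median to -0.005 and the unadjusted counts to 1151 higher and 1378 lower.

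**Figure D1:**
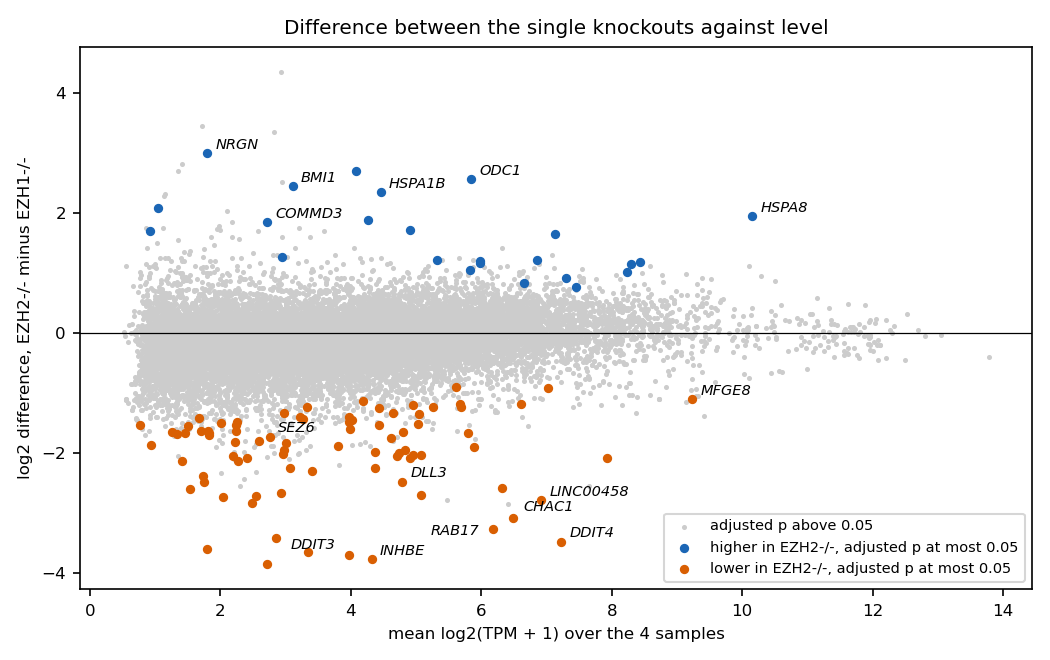
The horizontal axis is the mean log2(TPM + 1) over the 4 samples and the vertical axis the log2 difference of EZH2-/- minus EZH1-/- H1 cells, with 1 point for each of the 15465 genes tested. Blue points are the 24 genes higher and orange points the 83 genes lower in EZH2-/- H1 cells at an adjusted p of at most 0.05. HSPA8 is the most abundant gene among the blue points, and some grey points at differences as large did not pass.

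The replicates differed in how closely they resembled each other. Spearman's rho across 24983 genes was 0.968 between the EZH1-/- samples and 0.966 between the WT samples, but 0.947 between the EZH2-/- samples, no higher than the 0.947 to 0.959 between samples of different lines. EZH2-/- replicate 2 stood apart on chromosome 20. The median gene of that chromosome was 0.639 above the WT mean on the log2 scale there (1.56-fold), with 244 of 273 genes (89.4%) above WT and medians of 0.42 to 0.78 in every 10 Mb stretch, whereas the other chromosomes of that sample had medians of -0.227 to 0.166. In the other 5 samples of WT, EZH1-/- and EZH2-/- H1 cells the chromosome 20 median lay between -0.043 and 0.04. DNA copy number was not measured, and the part of this in any result was not tested beyond leaving the sample or the chromosome out. No gene past the 0.01 and 3-fold thresholds lies on chromosome 20, and the counts of 5 and 19 were the same without its genes.

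**Figure D2:**
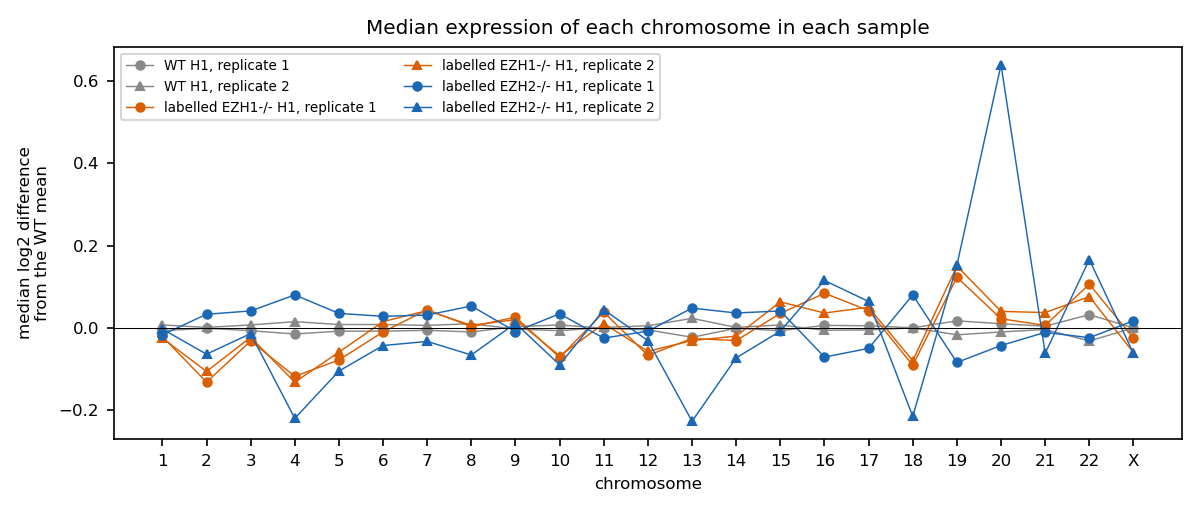
The vertical axis is the median log2 difference of a chromosome's genes from the WT mean in each sample, and the horizontal axis the chromosome, for WT (grey), EZH1-/- (orange) and EZH2-/- (blue) H1 samples, with circles for replicate 1 and triangles for replicate 2. EZH2-/- replicate 2 rises to 0.639 on chromosome 20, where the other 5 samples lie between -0.043 and 0.04.

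The counts of calls changed when 1 sample was left out, and were lowest without an EZH1-/- sample. The fitted spread changed too. The DDIT3 log2 difference was -3.95 and -3.47 without EZH1-/- replicate 1 and 2, with an SE of 0.47 in both. It was -3.06 and -4.36 without EZH2-/- replicate 1 and 2, with an SE of 0.29 and 0.3. The counts thus do not show which samples carry the differences. Without EZH1-/- replicate 1, 4 genes were higher and 13 lower at an adjusted p of at most 0.05, and without EZH1-/- replicate 2 the counts were 3 and 3, whereas they were 24 and 71 without EZH2-/- replicate 1 and 38 and 50 without EZH2-/- replicate 2. A fit of only the 4 samples, with 2 residual degrees of freedom, left 1 and 2. RAB17, ODC1, NRGN, HSPA1B and ATF3 passed 0.05 whichever sample was left out.

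The paper reports checks of its EZH1-/- and EZH2-/- lines by genomic PCR, qRT-PCR and western blot. The TPM levels of the targeted genes do not themselves check the labels of these samples. EZH1 had a TPM of 13.7 and 14.3 in WT, 12.5 and 17.1 in EZH1-/-, 9.72 and 7.92 in EZH2-/- and 9.37 and 6.78 in EZH2-/-/EZH1-/- H1 cells. The samples labelled EZH1-/- therefore lay on either side of the WT samples, and both lay above both samples labelled EZH2-/- (log2 difference -0.68 ± 0.28 (SE), adjusted p = 0.293). EZH2 was at 54.5 and 58.9 in WT, 34.8 and 29.2 in EZH1-/-, 46.9 and 22.02 in EZH2-/- and 31.3 and 20.03 in EZH2-/-/EZH1-/- H1 cells. The EZH2-/- samples lay on either side of the EZH1-/- samples (log2 difference 0.01 ± 0.37 (SE), adjusted p = 0.991). A gene-level TPM counts exons on both sides of a removed domain, so it neither shows nor denies the deletion, and genotypes below are those of the labels.

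Placed against WT H1 cells, most of the genes that differed had moved in the samples labelled EZH1-/-. Both comparisons share the same 2 WT samples, so their values are set side by side only. At an adjusted p of at most 0.05, EZH1-/- H1 cells had 180 genes (1.16%) above and 67 (0.433%) below WT, and EZH2-/- H1 cells had 6 (0.0388%) above and 3 (0.0194%) below. Of the 83 genes lower in EZH2-/- than in EZH1-/- H1 cells, the shift from WT was larger in EZH1-/- for 64 and larger in EZH2-/- for 19. Among them 45 passed 0.05 against WT in EZH1-/- alone, 1 in EZH2-/- alone, 1 in both lines and 36 in neither. Of the 24 higher genes, 17 had the larger shift in EZH1-/- and 7 in EZH2-/-, with 14, 3, 0 and 7 in the same order. All 107 genes had non-overlapping values between the 2 lines, as did 47.2% of all genes tested.

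**Figure D3:**
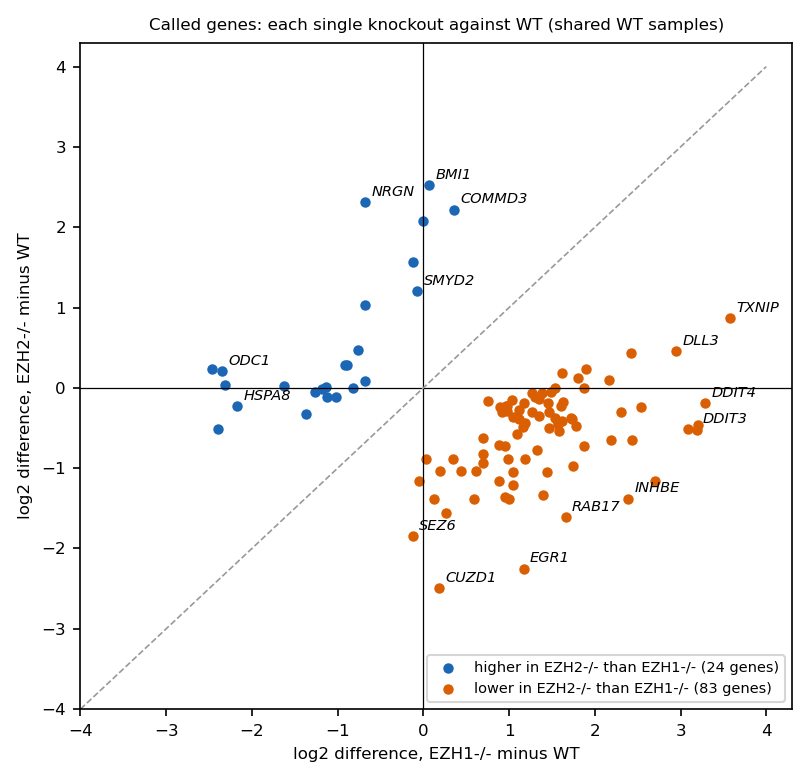
The horizontal axis is the log2 difference of EZH1-/- minus WT and the vertical axis that of EZH2-/- minus WT H1 cells, for the 24 genes higher (blue) and 83 lower (orange) in EZH2-/- than in EZH1-/- H1 cells. The dashed line marks equal shifts, and both axes share the WT samples. Most orange points lie to the right of 0 and near 0 on the vertical axis (DDIT4 at 3.29 and -0.19), while NRGN, BMI1 and COMMD3 lie near the vertical axis at differences above 2.

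More genes passed 0.05 in the list of stress-response genes than in any other list. Shortage of amino acids or an overload of unfolded protein in the endoplasmic reticulum activates kinases that induce the transcription factor ATF4, which with DDIT3 (CHOP) and ATF3 switches on amino acid synthesis, transport and feedback genes. Of 31 tested members of the list, 7 were lower and 0 higher in EZH2-/- than in EZH1-/- H1 cells at an adjusted p of at most 0.05. The shares of all genes were 0.537% and 0.155%. At an unadjusted p under 0.05, 19 members were lower and 3 higher, against 10.3% and 4.25% of all genes. The median log2 difference of the list was -0.85 beside -0.10 over all genes. Leaving out 1 sample at a time gave 7 and 6 members past 0.05 without EZH2-/- replicate 1 and 2, and 6 and 1 without EZH1-/- replicate 1 and 2.

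DDIT3, the transcription factor CHOP, had a TPM of 47.3 and 66.2 in EZH1-/- and 1.77 and 5.83 in EZH2-/- H1 cells, beside 4.84 and 5.66 in WT. In EZH2-/- replicate 1 it thus lay below and in replicate 2 close to WT, and both EZH1-/- samples lay far above every other (log2 difference -3.71 ± 0.37 (SE), adjusted p = 0.00172; 13.1-fold on the log2(TPM + 1) scale). DDIT4 (REDD1), an inhibitor of mTORC1, was at 468 and 531 in EZH1-/-, 66.6 and 28.6 in EZH2-/- and 54.2 and 45.9 in WT H1 cells (log2 difference -3.48 ± 0.39 (SE), adjusted p = 0.00315). CHAC1, which degrades glutathione, was at 254 and 265 in EZH1-/-, 19.9 and 44.5 in EZH2-/- and 48.2 and 46.4 in WT H1 cells (log2 difference -3.08 ± 0.34 (SE), adjusted p = 0.00315). The 3 genes shared a pattern, with the EZH1-/- samples above all WT and EZH2-/- samples.

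Smaller differences of the same direction were found for ATF3, SESN2, CTH and STC2. ATF3, a transcription factor of the same response, was at 47.2 and 58.7 in EZH1-/-, 13.3 and 11.6 in EZH2-/- and 17.3 and 16.9 in WT H1 cells (log2 difference -2.0 ± 0.19 (SE), adjusted p = 0.00146). SESN2, a sensor of leucine that restrains mTORC1, was at 60.5 and 62.7, 10.7 and 19.1 and 19.7 and 18.96 in that order (-2.03, adjusted p = 0.00507). CTH, which makes cysteine from cystathionine, was at 51.4 and 71.7 in EZH1-/- and 15.7 and 11.7 in EZH2-/- H1 cells (-2.08, adjusted p = 0.00854). STC2, a secreted glycoprotein induced by this stress, passed 0.05 alone, with 92.3 and 140.3 against 33.2 and 26.2 (-1.91, adjusted p = 0.0142). None of these 4 genes overlapped between the lines, nor did any of the 107 genes past 0.05 or 47.2% of all genes tested.

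ATF4 itself, which is controlled mainly at translation, had a TPM of 674 and 569.7 in EZH1-/- and 517 and 734 in EZH2-/- H1 cells, with overlapping values (log2 difference -0.01, 95% confidence interval -0.46 to 0.44). Unlike CTH, the amino acid synthesis genes PSPH and ASNS of the list did not pass 0.05. PSPH had 79.2 and 113 against 37.9 and 42.7 (adjusted p = 0.0592), and ASNS 201 and 294 against 148 and 122 (adjusted p = 0.212). TRIB3, an inhibitory target of the pathway, had 20.1 and 48 against 8.11 and 21.4 (adjusted p = 0.259). TRIB3 lies on chromosome 20, and its log2 difference was -1.17, or -1.82 without EZH2-/- replicate 2. HSPA5, the endoplasmic reticulum chaperone BiP that marks unfolded protein, lay the other way, at 294 and 205 in EZH1-/- and 399 and 455 in EZH2-/- H1 cells (0.79, adjusted p = 0.0937). The list was thus not uniform: its 7 positive members included HSPA5, DNAJB9 and CALR, which act in the folding of proteins in the endoplasmic reticulum.

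Some genes outside that list behaved like it. INHBE, which encodes activin E and lies 64.3 kb from DDIT3 on chromosome 12, had 55.9 and 94.9 in EZH1-/-, 3.4 and 5.65 in EZH2-/- and 12.7 and 13.6 in WT H1 cells (log2 difference -3.77 ± 0.42 (SE), adjusted p = 0.00315; 13.7-fold). FGF21, a stress-induced hormone of the FGF family, was at 5.7 and 6.69 in EZH1-/- and 0.17 and 0.18 in EZH2-/- H1 cells (log2 difference -2.61 ± 0.35 (SE), adjusted p = 0.00947). It passed the filter through the EZH1-/- samples alone, and its adjusted p was 0.113 with a pseudocount of 0.1. FUT1, a fucosyltransferase that starts next to FGF21 on the opposite strand, was at 12.4 and 17.5 and 3.32 and 2.51 (log2 difference -2.02 ± 0.28 (SE), adjusted p = 0.00947). GDF15, a stress-induced member of the TGF-beta family, was at 11.8 and 8.51 and 0.82 and 2.66 beside 2.89 and 6.35 in WT H1 cells (-2.09 ± 0.37 SE, adjusted p = 0.0297). It was at 99.1 to 595 in the 6 PRC2-null samples, far above both single knockouts. JDP2, a partner of AP-1 factors, was lower in EZH2-/- too, by -1.52 on the log2 scale. So were CEBPB, a partner of ATF4 (-1.34), and TXNIP, an inhibitor of thioredoxin (-2.71). CEBPB lies on chromosome 20, and without EZH2-/- replicate 2 its log2 difference was -1.57. TXNIP was at 58.7 and 124 in EZH1-/-, 14.8 and 9.96 in EZH2-/- and 6.92 and 5.58 in WT H1 cells (adjusted p = 0.0223).

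The sequence shown here lets a reader see the promoter elements beside these values. The letters TGATGNAA, searched on both strands, spell the composite element bound by CEBP-ATF dimers at amino acid-responsive genes, and were looked for in the 250 bases before each RefSeq gene start (build GRCh38.p14). They were found for 1061 of 27305 genes with a promoter in the table (3.89%) and for 7 of the 59 matched genes among the 83 lower ones (11.9%): ATF3, CHAC1, CUZD1, FGF21, FUT1, JDP2 and LFNG. None of the 19 matched genes among the 24 higher ones had them, and a match is a description of letters, not of binding. The windows below are printed 5′ to 3′ on the strand of the gene with the match in capitals, for chr1:212565186-212565253 (ATF3, + strand), chr19:48755440-48755507 (FGF21, + strand), chr14:75427976-75428021 (JDP2, + strand) and chr7:2517664-2517731 (LFNG, + strand).
ATF3: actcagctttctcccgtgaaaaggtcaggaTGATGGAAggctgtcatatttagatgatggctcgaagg
FGF21: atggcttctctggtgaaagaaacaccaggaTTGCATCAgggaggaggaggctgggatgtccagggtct
JDP2: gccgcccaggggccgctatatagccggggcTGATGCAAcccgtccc
LFNG: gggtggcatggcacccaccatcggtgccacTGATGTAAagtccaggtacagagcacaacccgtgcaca

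The FGF21 match lies on the opposite strand, 54 bases before the FGF21 start and 119 bases before the FUT1 start, so that FGF21 and FUT1 share this window between their divergent starts. FGF21 and FUT1 had log2 differences of -2.61 and -2.02. DDIT3, DDIT4, SESN2 and CTH have a promoter in the table without these letters, which says only that the letters are not in that window.

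Of the 5 genes higher in EZH2-/- at the stricter thresholds, 3 encode cytosolic chaperones. Heat shock proteins of the HSP70, HSP40 and HSP90 families fold newly made and damaged proteins, and are induced through HSF1. A list of heat shock chaperones was chosen after the values had been seen. At an adjusted p of at most 0.05, 4 of 34 tested members were higher and 0 lower in EZH2-/- than in EZH1-/- H1 cells. Of all genes tested, 0.155% were higher and 0.537% lower. At an unadjusted p under 0.05, 14 members were higher and 1 lower, against 4.25% and 10.3% of all genes. The median log2 difference was 0.40 beside -0.10 over all genes. Members past 0.05 numbered 4 and 3 without EZH2-/- replicate 1 and 2, and 2 and 1 without EZH1-/- replicate 1 and 2.

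HSPA8 (HSC70), the constitutive cytosolic HSP70, had a TPM of 722 and 469 in EZH1-/-, 2228 and 2239 in EZH2-/- and 2529 and 2723 in WT H1 cells (log2 difference 1.94 ± 0.23 (SE), adjusted p = 0.00395; 3.83-fold). HSPA1A was at 10 and 8.08 in EZH1-/-, 33.03 and 38.8 in EZH2-/- and 52.1 and 51 in WT H1 cells (log2 difference 1.88 ± 0.25 (SE), adjusted p = 0.00947). HSPA1B was at 10.3 and 7.37, 41.2 and 57.4 and 46.5 and 47.8 in that order (log2 difference 2.35 ± 0.23 (SE), adjusted p = 0.00163). HSPA1A and HSPA1B are nearly identical heat-inducible copies 12.2 kb apart on chromosome 6, so reads could be split between them and their separate values are uncertain. In all 3 genes both EZH1-/- samples lay below every EZH2-/- and WT sample, and the mean of the EZH2-/- samples was within 0.51 of the WT mean on the log2 scale.

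DNAJA1, an HSP40 co-chaperone of HSPA8, followed with 83.5 and 66.7 in EZH1-/- and 159 and 193 in EZH2-/- beside 165 and 201 in WT H1 cells (1.22 ± 0.19 SE, adjusted p = 0.0165). HSP90AA1, the inducible HSP90, lay in the same direction at 753 and 623 and 1059 and 970.2 but did not pass (0.56, adjusted p = 0.16). HSPB8, a small heat shock protein, lay the other way at 11.9 and 13.4 and 6.43 and 4.34 (-1.12, adjusted p = 0.0809). The PRC2-null samples had HSPA1A at 34.4 to 76.5 and HSPA8 at 1001 to 1949, so that none of the 6 was as low as the EZH1-/- samples in either gene.

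The letters GAANNTTC, inverted repeats of the unit that HSF1 binds, are shown for the paired HSP70 genes because these held them at the same place. The same 250 bases held them for 1924 of 27305 genes (7.05%), for DNAJA1, HSPA1A, HSPA1B and HSPA8 among the 19 matched higher genes (21.1%), for none of the 59 matched lower genes and for 15 of the 31 matched heat shock chaperones (48.4%). The windows are chr6:31815407-31815474 for HSPA1A and chr6:31827603-31827670 for HSPA1B, both on the + strand, with the match in capitals.
HSPA1A: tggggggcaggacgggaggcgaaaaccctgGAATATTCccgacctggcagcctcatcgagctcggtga
HSPA1B: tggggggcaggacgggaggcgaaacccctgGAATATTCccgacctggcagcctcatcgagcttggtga

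**Figure D4:**
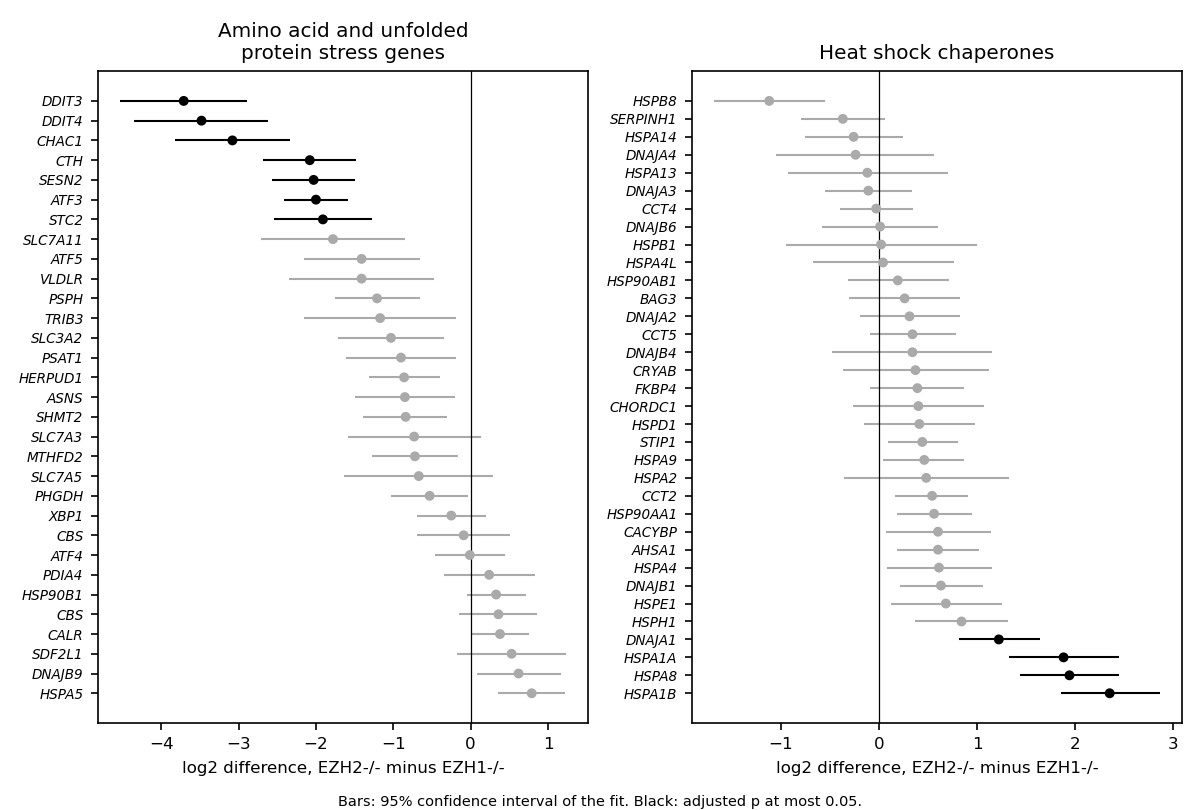
Each row is a tested member of the amino acid and unfolded protein stress list (left) or of the heat shock chaperone list (right), and the horizontal axis is the log2 difference of EZH2-/- minus EZH1-/- H1 cells with its 95% confidence interval; black marks an adjusted p of at most 0.05. DDIT3, DDIT4 and CHAC1 lie below -3 on the left, and HSPA1B lies at 2.35 on the right; CBS appears for 2 gene entries of that name.

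ODC1 gave the second smallest p-value of the comparison. It had a TPM of 22.6 and 22.5 in EZH1-/-, 137 and 139 in EZH2-/- and 118 and 120.3 in WT H1 cells. The EZH1-/- samples lay far below WT and the EZH2-/- samples slightly above (log2 difference 2.56 ± 0.19 (SE), adjusted p = 0.0002; 5.9-fold). The PRC2-null samples covered 49.5 to 191, with the lowest in SUZ12-/- at 54.4 and 49.5. Of 12 tested genes of the polyamine pathway, a list chosen after the values had been seen, ODC1 alone passed 0.05, and SRM, which makes spermidine, had 118 and 116 against 137 and 208 (adjusted p = 0.296).

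RAB17 had the smallest p-value and was the one gene of the 83 that passed 0.05 against WT in both lines, in opposite directions. RAB17 is a small GTPase of epithelial membrane traffic. Its TPM was 220.3 and 227 in EZH1-/-, 68.1 and 72.5 in WT and 22.7 and 21.9 in EZH2-/- H1 cells. EZH1-/- was above WT by 1.66 (adjusted p = 0.00662) and EZH2-/- was lower than WT, at -1.61 (adjusted p = 0.0243). Between the knockouts the log2 difference was -3.27 (adjusted p = 9.96e-05), a 9.64-fold difference that passed 0.05 under all 12 alternatives. The PRC2-null samples were at 52.8 to 156, which spans the WT samples.

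DLL3, LFNG and FGF19 were the Notch and FGF signalling genes lower in EZH2-/- H1 cells. Of 32 tested members of the list, 3 were lower and 0 higher at an adjusted p of at most 0.05, with a median of -0.52. Of all genes, 0.537% were lower and 0.155% higher. At an unadjusted p under 0.05, 8 members were lower and 2 higher, against 10.3% and 4.25% of all genes. Members past 0.05 numbered 1 and 2 without EZH2-/- replicate 1 and 2, and 1 and 0 without EZH1-/- replicate 1 and 2. DLL3, a Notch ligand that inhibits signalling within the cell that makes it, was at 66.2 and 62.8 in EZH1-/-, 11.7 and 9.79 in EZH2-/- and 8.9 and 6.29 in WT H1 cells (log2 difference -2.48 ± 0.26 (SE), adjusted p = 0.00251). LFNG, the glycosyltransferase that modifies Notch receptors, was at 40.6 and 48.3, 8.74 and 17.4 and 15.9 and 15.1 in that order (-1.76 ± 0.33 SE, adjusted p = 0.0397). FGF19, a secreted FGF, was at 23.2 and 25.9, 8.65 and 8.73 and 11.4 and 10.2 (-1.40 ± 0.26 SE, adjusted p = 0.0372). With a pseudocount of 0.1 the adjusted p of FGF19 was 0.113. DLL3 and FGF19 were lower still in the PRC2-null samples, at 4 to 6.43 and 0.19 to 1.97. Targets of the pathways did not pass: HES1, the classic Notch effector, had 16.4 and 19.1 against 8.13 and 6.06 (adjusted p = 0.153), and SPRY4, an FGF feedback inhibitor, 97.9 and 123 against 44.5 and 22.1 (adjusted p = 0.166).

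Other protein-coding genes past the 0.01 and 3-fold thresholds were also lower in EZH2-/-. MEF2B, a MADS-box transcription factor, was at 23.1 and 52.7 in EZH1-/-, 3.15 and 0.96 in EZH2-/- and 2.12 and 3.91 in WT H1 cells (-3.66 ± 0.45 SE, adjusted p = 0.00571). TSC22D3 (GILZ), a glucocorticoid-induced leucine zipper protein, was at 38.2 and 71.5, 9.7 and 14.3 and 11.97 and 9.9 (-2.06 ± 0.28 SE, adjusted p = 0.00952). S100A4, a calcium-binding protein of motile cells, was at 111 and 86.8, 26.5 and 34.6 and 50.7 and 41.05 (-1.67 ± 0.21 SE, adjusted p = 0.00667). CLC, the lysophospholipase-like galectin of eosinophil crystals, was at 17.9 and 10.99, 0.74 and 1.53 and 1.27 and 3.8 (-2.84 ± 0.38 SE, adjusted p = 0.00877). In each of these 4 genes both EZH1-/- samples stood above all WT and EZH2-/- samples. ATF3, FUT1, S100A4 and AC140725.4 fell outside the 15 largest differences and were added to the named genes with their values known.

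Of the 19 lower genes at the stricter thresholds, 16 were protein-coding and 3 were annotated as lncRNAs. LINC00458, a transcript known from pluripotent cells, was at 358 and 283 in EZH1-/-, 44.5 and 45.9 in EZH2-/- and 38.5 and 74.8 in WT H1 cells (-2.79 ± 0.36 SE, adjusted p = 0.0081). LINC01356 was at 188 and 199.6, 38.2 and 25.9 and 42.1 and 64.9 (-2.58 ± 0.29 SE, adjusted p = 0.00315). AC140725.4 was at 3.19 and 2.18 in EZH1-/- and listed at 0 in both EZH2-/- and both WT samples (adjusted p = 0.00947), so that no fold is given. The filter kept it through the EZH1-/- samples alone, and its adjusted p was 0.0586 with a pseudocount of 0.1. CTD-2501M5.1, which was named with its values known, passed 0.05 with 500.1 and 507 in EZH1-/-, 95.3 and 144 in EZH2-/- and 139.7 and 166 in WT H1 cells (-2.09 ± 0.34 SE, adjusted p = 0.0206). RP11-136F16.1 moved the other way, at 3.91 and 7.88 in EZH1-/-, 29.8 and 58.8 in EZH2-/- and 29.2 and 43.6 in WT (2.70 ± 0.41 SE, adjusted p = 0.0142). Its adjusted p was 0.143 with a pseudocount of 0.1, and it was at 0 to 0.6 in the PRC2-null samples.

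**Figure D5:**
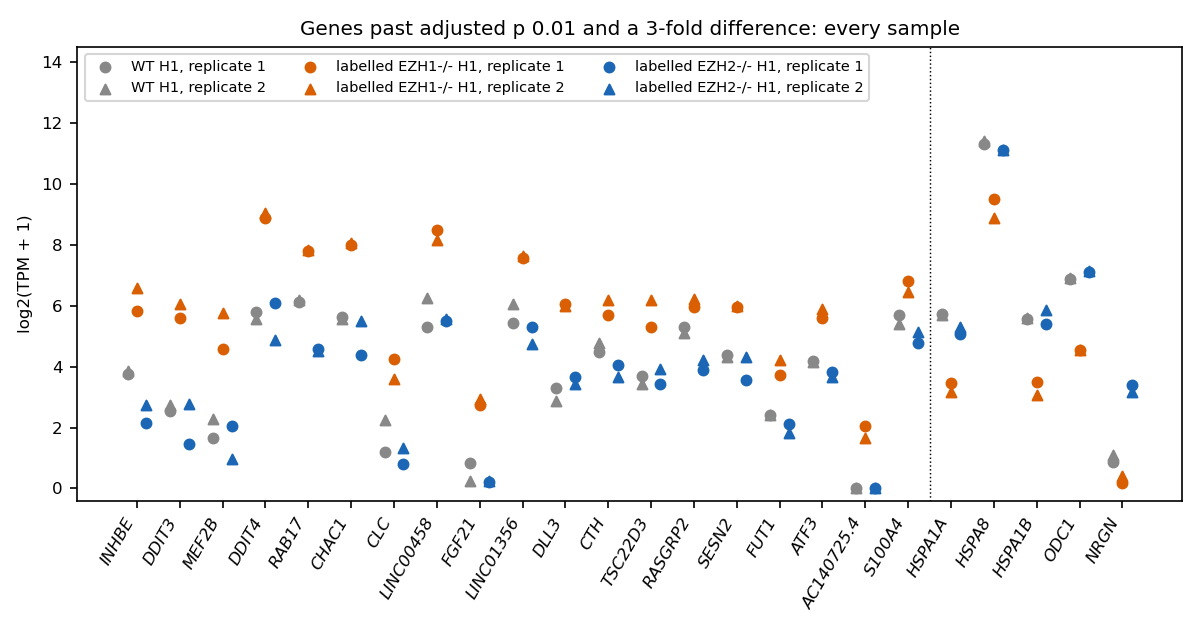
The vertical axis is log2(TPM + 1) for the 24 genes past an adjusted p of 0.01 and a 3-fold difference, ordered by difference, with 1 point for each sample of WT (grey), EZH1-/- (orange) and EZH2-/- (blue) H1 cells. To the left of the dotted line are the 19 genes lower in EZH2-/-, where orange points stand above grey and blue ones. To the right are the 5 higher genes, where orange points stand below grey and blue ones.

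For a smaller set the larger shift from WT was in EZH2-/- H1 cells. The 7 higher genes whose shift from WT was larger in EZH2-/- were NRGN, VSIG2, COMMD3, BMI1, SMYD2, H2AFY2 and the lncRNA AC005786.7. Against WT, NRGN (adjusted p = 0.0243), COMMD3 (0.0243) and AC005786.7 (0.0378) passed 0.05 in EZH2-/- H1 cells, and VSIG2 (0.104), BMI1 (0.105), SMYD2 (0.129) and H2AFY2 (0.394) did not. NRGN was at 9.6 and 8.01 in EZH2-/-, 0.14 and 0.33 in EZH1-/- and 0.81 and 1.15 in WT H1 cells (log2 difference 2.99 ± 0.26 (SE), adjusted p = 0.000811; 7.94-fold). VSIG2, an immunoglobulin superfamily membrane protein, is its neighbour on the opposite strand (chr11:124739942-124747210 for NRGN and chr11:124747474-124752255 for VSIG2 in GENCODE release 44). VSIG2 was at 2.51 and 2.31 in EZH2-/-, 0 and 0.12 in EZH1-/- and 0.1 and 0.2 in WT H1 cells (1.69 ± 0.27 SE, adjusted p = 0.0207). Both genes were on in the EZH2-/- samples and near 0 in the EZH1-/- samples, so both passed the filter through the EZH2-/- samples alone. In the PRC2-null samples NRGN was at 3.87 to 12.4 and VSIG2 at 0.7 to 3.37.

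BMI1 (PCGF4), a ring-finger subunit of canonical PRC1, was the single PRC1 gene of 22 tested that passed 0.05. It had a TPM of 34.1 and 10.6 in EZH2-/-, 2.37 and 3.06 in EZH1-/- and 2.12 and 2.99 in WT H1 cells (2.45 ± 0.44 SE, adjusted p = 0.0345). The EZH2-/- samples were unequal, but both lay above every WT and EZH1-/- sample, and without EZH2-/- replicate 1 the adjusted p was 0.0737. COMMD3, which is joined to BMI1 by a readthrough transcript and lies just before it (chr10:22316386-22320306 and chr10:22321099-22331484), was at 10.1 and 13.03, 2.24 and 2.67 and 1.91 and 1.47 in that order (1.85 ± 0.29 SE, adjusted p = 0.0172). Reads of the readthrough transcript can be split between both genes, so they are not independent. In the PRC2-null samples BMI1 reached 24.7 to 71.01 and COMMD3 39.96 to 84.3, above the EZH1-/- and WT samples in all 6.

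SMYD2, a lysine methyltransferase, was at 10.5 and 11.4 in EZH2-/-, 4.06 and 3.83 in EZH1-/- and 4.23 and 4.15 in WT H1 cells (1.27 ± 0.22 SE, adjusted p = 0.0309), and at 32.1 to 58.4 in the PRC2-null samples. H2AFY2, which encodes the histone variant macroH2A2, was at 72.02 and 39.01, 15.8 and 15.3 and 31.5 and 20.6 (1.71 ± 0.28 SE, adjusted p = 0.0235), and at 41.9 to 69.9 in the PRC2-null samples. For SMYD2, BMI1 and COMMD3 the EZH2-/- level thus lay between those of WT and the lowest PRC2-null sample. EZH2-/- replicate 1 of BMI1 was the exception. The PRC2-null cells had differentiated according to the paper, so cell state and genotype cannot be told apart in their values. AC005786.7 was at 2.2 and 4.61 in EZH2-/- and listed at 0 in both EZH1-/- and both WT samples (adjusted p = 0.0131). The filter kept it through the EZH2-/- samples alone, and its adjusted p was 0.055 with a pseudocount of 0.1.

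On the lower side, 19 genes had their larger shift in EZH2-/-. SEZ6, a neuronal membrane protein, was at 2.56 and 2.87 in EZH2-/-, 10.9 and 11.8 in EZH1-/- and 11.9 and 12.96 in WT H1 cells (-1.73 ± 0.26 SE, adjusted p = 0.0142), and it was the one gene of the 83 that passed 0.05 against WT in EZH2-/- alone (-1.85, adjusted p = 0.0349). With a pseudocount of 0.1, the adjusted p of SEZ6 between the knockouts was 0.19. SEZ6 was at 0 to 0.56 in the PRC2-null samples. RASGRP2, a Rap1 exchange factor, was at 13.7 and 17.7, 61.4 and 73.3 and 38.7 and 33.3 in the same order (-2.04 ± 0.27 SE, adjusted p = 0.00861), and at 2.85 to 9.49 in the PRC2-null samples. MFGE8, a secreted adhesion protein, was at 469 and 356, 769.8 and 1004 and 880.3 and 946 (-1.10 ± 0.19 SE, adjusted p = 0.0253), and its chromosome 15 neighbour HAPLN3, a hyaluronan link protein, at 30.7 and 34.5, 71.95 and 83.97 and 56.3 and 66.9 (-1.23 ± 0.21 SE, adjusted p = 0.0268). EGR1, an immediate early transcription factor, was at 2.62 and 0.34, 19.02 and 26.6 and 14.3 and 6.12 (-3.42 ± 0.67 SE, adjusted p = 0.0498). In SEZ6 and MFGE8 the EZH1-/- samples were close to WT and the EZH2-/- samples below both.

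No gene of the polycomb machinery other than BMI1 passed 0.05 among those listed. Of 6 tested PRC2 core genes, 9 accessory genes and 13 H3K27 demethylase and COMPASS genes, limma called 0 at an adjusted p of at most 0.05. At an unadjusted p under 0.05 there were 1 higher and 1 lower, 1 and 1, and 0 and 0. The shares of all genes at that threshold were 4.25% higher and 10.3% lower. SUZ12 was at 16.2 and 16.9 in EZH1-/- and 31.2 and 11.7 in EZH2-/- H1 cells (log2 difference 0.20, 95% confidence interval -0.61 to 1.01), and RBBP4, a histone chaperone subunit, at 178 and 175 and 222 and 169 (0.13, -0.65 to 0.92). JARID2, which helps to recruit PRC2, was at 130.2 and 154 and 148 and 97.3 (-0.24, -0.92 to 0.44). PHF1, a Polycomb-like subunit, was at 42.3 and 46.4 and 27.5 and 26.4 (-0.70, adjusted p = 0.144). CBX7, a PRC1 reader of the mark, was at 7.74 and 11.7 and 2.78 and 2.05 (-1.63, adjusted p = 0.102). None of 7 DNA methylation genes passed 0.05, with 1 higher and 0 lower at an unadjusted p under 0.05. DNMT3B, on chromosome 20, had 541 and 538 against 796 and 1268, the highest being EZH2-/- replicate 2.

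Markers of the cell type were present in both lines. Limma called 0 of 24 core and primed pluripotency genes at an adjusted p of at most 0.05, and their median was -0.05. At an unadjusted p under 0.05, 4 were higher and 0 lower in EZH2-/-, against 4.25% and 10.3% of all genes. POU5F1 (OCT4) was at 3342 and 3367 in EZH1-/-, 3317 and 3456 in EZH2-/- and 2531 and 2428 in WT H1 cells (0.01, 95% confidence interval -0.57 to 0.60). NANOG was at 124 and 147, 185 and 107 and 140.4 and 97.5 (0.06, -0.64 to 0.76). SOX2 was at 141 and 173, 216 and 119.9 and 165 and 219 (0.04, -0.95 to 1.03). These intervals still allow differences of up to about the size of the limits given. The 4 genes at an unadjusted p under 0.05 were GDF3, LEFTY2, PRDM14 and L1TD1, and PRDM14, a pluripotency factor, had 29.1 and 30.2 against 51.5 and 75.2 (adjusted p = 0.268).

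Lineage genes showed few values to compare. All 39 HOX genes, textbook targets of the mark, stayed under the filter, with a highest TPM of 0.76 in the 4 samples. Of the neural ectoderm, primitive streak and mesoderm, endoderm, and trophoblast and amnion lists, 14 of 36, 8 of 37, 6 of 19 and 5 of 19 genes were tested, and limma called 0 of each at an adjusted p of at most 0.05. At an unadjusted p under 0.05 there were 2 higher and 1 lower, 0 and 3, 1 and 1, and 0 and 1. NES, an intermediate filament of neural progenitors, had 75.8 and 78.3 against 108 and 154 (0.74, adjusted p = 0.107), and KDR, a receptor of mesoderm, 105 and 133 against 68.7 and 31.6 (-1.32, adjusted p = 0.338). Bulk TPM cannot tell a change in every cell from a change in the share of a few cells. None of the 30 tested clustered protocadherins or the 10 tested naive pluripotency genes passed 0.05, with 0 and 1 at an unadjusted p under 0.05. Nor did any of 30 tested imprinted genes, with 1 higher and 3 lower. Across all genes tested, 4.25% were higher and 10.3% lower at that unadjusted threshold.

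The BMP, NODAL and TGF-beta list held single genes more than a shared shift. Of 39 tested BMP, NODAL and TGF-beta genes, 2 were lower at an adjusted p of at most 0.05, INHBE and GDF15 as above. The share of all genes was 0.537%. At an unadjusted p under 0.05, 6 were higher and 4 lower, against 4.25% and 10.3% of all genes. The median was 0.02. NODAL was at 13.3 and 13.4 in EZH1-/- and 19.1 and 56.8 in EZH2-/- H1 cells (1.25, adjusted p = 0.173), the highest being EZH2-/- replicate 2. ID3, a target of BMP signalling, was at 262 and 251 and 101 and 144 (-1.08, adjusted p = 0.0886). ID1, another target, lay the other way at 221 and 218 and 234 and 446 (0.56, adjusted p = 0.415). However, ID1 lies on chromosome 20, and its highest value was in EZH2-/- replicate 2. Without that sample its log2 difference was 0.09. Limma called 0 of 23 WNT genes, with 3 higher and 1 lower at an unadjusted p under 0.05, among them the receptors FZD2 (1.10) and FZD7 (-1.08).

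HMGCS1 was the one gene past 0.05 in the cholesterol synthesis, MHC class I and interferon, and glycolysis and hypoxia lists. Of 20 cholesterol synthesis genes, 1 was higher at an adjusted p of at most 0.05 and 10 at an unadjusted p under 0.05. Here 0 were lower, and the median was 0.53. Of all genes tested, 0.155% and 4.25% were higher and 0.537% and 10.3% lower at these 2 thresholds. The called gene was HMGCS1, which makes the precursor of mevalonate, at 102 and 60.4 in EZH1-/-, 313 and 196 in EZH2-/- and 252 and 236 in WT H1 cells (1.65 ± 0.32 SE, adjusted p = 0.0474). Limma called 0 of 28 MHC class I and interferon genes at an adjusted p of at most 0.05, but 12 were lower and 0 higher at an unadjusted p under 0.05, with a median of -0.59. IFITM1, an interferon-induced membrane protein, was at 877 and 979 in EZH1-/-, 417 and 474 in EZH2-/- and 388 and 346 in WT H1 cells (-1.06, adjusted p = 0.0899). TAP1, the peptide transporter of antigen presentation, was at 20.6 and 20.4, 6.85 and 9.98 and 6.47 and 7.74 (-1.21, adjusted p = 0.0833). Glycolysis and hypoxia genes had 0 calls among 32, with 3 higher and 3 lower at an unadjusted p under 0.05 and a median of -0.09.

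Of 27 tested replication and mitosis genes, 1 was higher at an adjusted p of at most 0.05 and 8 at an unadjusted p under 0.05. Their median was 0.36. Among all genes tested the shares higher were 0.155% and 4.25%, and those lower 0.537% and 10.3%. PCNA, the sliding clamp of DNA replication, was at 268 and 197 in EZH1-/-, 466 and 585 in EZH2-/- and 415 and 440.1 in WT H1 cells (1.18 ± 0.22 SE, adjusted p = 0.0385). PCNA lies on chromosome 20, its highest value was in EZH2-/- replicate 2, and without that sample the adjusted p was 0.105. CPXM1, PSMF1 and YWHAB, the other higher genes on chromosome 20, had adjusted p-values of 0.0506, 0.118 and 0.0804 without it. Of 22 p53 target genes, 1 was lower at an adjusted p of at most 0.05, GDF15, with 6 lower and 1 higher at an unadjusted p under 0.05 and a median of -0.32. BAX, an effector of apoptosis, was at 289 and 280.5 and 136 and 339, with EZH2-/- replicate 2 above the EZH1-/- samples and EZH2-/- replicate 1 below them. Of 16 tested genes from the chromosome 20 segment often gained in culture, 0 passed 0.05, and their median log2 difference was -0.23. At an unadjusted p under 0.05, 0 were higher and 2 lower. The summed TPM of all 22 listed genes, tested or not, was 1731 and 2566 in EZH2-/- beside 1613 and 1675 in EZH1-/- H1 cells. The highest single value in these sums was 1268, that of DNMT3B in EZH2-/- replicate 2.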

How the data were processed

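RNA from H1 hESCs was sequenced from TruSeq libraries. The authors matched the reads to GRCh38 mRNA sequences (Bowtie2), estimated gene abundance by RSEM and deposited 1 TPM value for each of 33382 genes in every sample. The submitters' processing notes list hg19 beside GRCh38, with no role given. TPM keeps no read depth, so depth is unknown and no interval or floor that needs it is given; precision rests on the number of samples. The authors' edgeR test needs counts, so limma 3.58.1 in R 4.3.3 was used, with the false discovery rate of 1% and fold of 3 from their methods.

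Values were taken as log2(TPM + 1), so that fold changes of low genes are understated. A gene was kept if 2 or more of the 4 EZH1-/- and EZH2-/- samples reached a TPM of 1 (15465 genes). It could therefore be kept through only the line in which it was high. A mean was fitted for each of the 6 lines over 12 samples, with 6 residual degrees of freedom shared by all lines, by lmFit, contrasts.fit and eBayes with trend and robust options, and p-values were adjusted over all genes tested by the Benjamini-Hochberg method. The code was tested on simulated data. The 7 samples of the inducible EED time course were not used here. The 12 files held 0 pairs of identical samples. Replicate numbers follow accession order and pair nothing across lines.

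Named genes are EZH1 and EZH2, genes past an adjusted p of 0.01 and a 3-fold difference (up to 15 in each direction), members of the gene lists past 0.05, and up to 4 members of each list with the highest TPM. Every other gene was named after its values had been seen. The members and the 25 lists were chosen with earlier results of these data known, and the lists of heat shock chaperones and of polyamine genes were added after the values had been seen; the 15 mitochondrially encoded genes of 1 list are not analysed here. Lists are described by counts and medians, with no set test. List counts stand beside the shares of all genes tested. These were 0.155% higher and 0.537% lower at an adjusted p of at most 0.05. At an unadjusted p under 0.05 they were 4.25% and 10.3%. Coordinates are from GENCODE release 44 on GRCh38, matched by Ensembl identifier for 32481 genes (97.3%). Promoter sequences are from RefSeq (GRCh38.p14), matched by symbol. For chromosome medians, genes whose mean TPM reached 5 were used. Alternatives were a pseudocount of 0.1, other filters, fits of 4 or 6 samples, median-ratio scaling, eBayes without trend and robust options, limma's treat, leaving out each sample and, added after seeing the data, leaving out chromosome 20. Python 3.11.15 with numpy 2.4.6, pandas 2.3.3 and matplotlib 3.10.9 was used for the other steps.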

Additional observations from a re-analysis of the deposited data

How the results depend on the processing

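The counts of 5 higher and 19 lower genes at an adjusted p of at most 0.01 and 3-fold became 4 and 10 with a pseudocount of 0.1, 3 and 5 with no filter, 3 and 17 with median-ratio scaling and 4 and 12 by limma's treat. They were 1 and 1 in the fit of 6 samples with WT and 0 and 0 in the fit of the 4 samples, where 598 and 1512 genes had an unadjusted p under 0.05. With an adjusted p of at most 0.05 and no fold cutoff they were 24 and 83. Leaving out 1 sample gave 1 to 6 higher and 1 to 15 lower genes, the lowest being 1 and 1 without either EZH1-/- sample; without EZH2-/- replicate 2 they were 5 and 6. Against WT, EZH1-/- H1 cells had 10 genes above and 6 below at the stricter rule, 6 and 2 in the fit of 6 samples and 180 and 67 at 0.05, and EZH2-/- H1 cells had 0 and 0, with 436 and 577 genes at an unadjusted p under 0.05, and 6 and 3 at an adjusted p of at most 0.05. All 24 genes of the stricter rule passed 0.05 in the fit of 6 samples with WT, with median-ratio scaling and without either EZH2-/- sample, 15 did so without EZH1-/- replicate 1 and 5 without EZH1-/- replicate 2.

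No named gene past 0.05 changed direction under any alternative run. Signs turned for genes that did not pass. Leaving out 1 sample, the log2 difference ran from -0.51 to 0.54 for EZH2, -0.47 to 0.88 for SUZ12, -0.06 to 0.33 for RBBP4, -0.54 to 0.06 for JARID2, -1.06 to 0.25 for BAX, -0.33 to 0.45 for NANOG, -0.38 to 0.46 for SOX2, -0.02 to 0.04 for POU5F1, -0.17 to 0.01 for TDGF1 and -0.26 to 0.24 for ATF4. With median-ratio scaling it was 0.10 for ATF4 and 0.03 for TDGF1. The cause was not tested. No paired analysis was possible because the numbers 1 and 2 of the deposited samples follow their order, and no label ties samples of different lines together. With 2 samples a line, unknown depth and unexplained sample suffixes, clone, passage and genotype cannot be told apart.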

Other observations

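Several genes that were lower in EZH2-/- than in EZH1-/- H1 cells had still higher values in all 6 PRC2-null samples. They were picked for this with their values known, so the PRC2-null levels are a description with no test. According to the paper, the PRC2-null cells had differentiated, whereas the single knockouts had not. GMPR, a purine salvage enzyme, had a TPM of 5.56 and 5.28 in EZH1-/-, 1.03 and 0.92 in EZH2-/- and 1.35 and 1.71 in WT H1 cells (-1.70 ± 0.28 SE, adjusted p = 0.0223), and 10.1 to 43.6 in the PRC2-null samples. PCDH10, a protocadherin, was at 7.38 and 9.45, 2.38 and 0.49 and 3.62 and 2.68 in that order (-2.06 ± 0.38 SE, adjusted p = 0.0372), and at 35.2 to 140.3 in the PRC2-null samples. STARD10, a lipid transfer protein, was at 47.1 and 45.3, 19.7 and 19.2 and 21.4 and 24.7 (-1.21 ± 0.18 SE, adjusted p = 0.0141), and at 76.2 to 189 in the PRC2-null samples. SIT1, a lymphocyte adaptor, had the opposite order in the PRC2-null samples. It was at 12.9 and 16.4, 2.4 and 3.67 and 7.84 and 11.1 (-1.96 ± 0.30 SE, adjusted p = 0.0142), against 0 to 0.25. With a pseudocount of 0.1 its adjusted p was 0.194.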
